A study of Mus musculus with 6 samples.

Results

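Glutamate receptor subunits and the scaffold proteins that hold them at the synapse were examined in embryonic mouse frontal cortex. The 37 genes were chosen by name, as 4 AMPA, 5 NMDA, 5 kainate and 6 metabotropic receptor genes, 4 Dlg, 3 Shank, 3 Homer and 4 Dlgap scaffold genes, 2 CaMKII genes and the gephyrin gene Gphn, out of 16593 named genes on the array. 29 of them had a named probe, and the probe with the highest mean over the arrays stood for each gene. No probe in the annotation used bore the names of Grin1, Grin3a, Grik3, Grm2, Grm5, Shank1, Homer2 and Homer3, which were not analysed here. The samples were 3 male transgenic C57BL/6J embryos at embryonic day 15 that carried a bacterial artificial chromosome spanning Cyfip1 (clone RP24-333C15), and 3 male wild-type littermate controls of the same strain and age. The transgenic mice were made by pronuclear injection, and the labels give neither the founder line nor the number of copies. Each embryo's RNA was hybridised to its own 1-colour Illumina bead array, so precision is limited by there being 3 per group. No probe bore the name Cyfip1, so the labels were not checked against the transgene itself.

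At excitatory synapses glutamate opens AMPA and kainate receptors, which carry fast current, and NMDA receptors, which admit calcium and are needed for many forms of plasticity, while metabotropic receptors act through G proteins. Below the membrane, PSD-95 and its relatives of the Dlg family bind receptor tails, Dlgap proteins link them to Shank proteins, and Homer proteins tie Shank to metabotropic receptors. CaMKII is the calcium-activated kinase of this assembly, and gephyrin does the scaffold's work at inhibitory synapses. At mid-gestation cortical neurons are still being born and migrating, so most of these synapses have yet to form. The Cyfip1 protein binds FMRP, the fragile X protein that attaches to many synaptic mRNAs, and also belongs to the WAVE complex, a driver of actin branching.

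Several samples departed from pure frontal cortex by their marker genes, and this touches all comparisons below. Wild-type sample 2 read at background for several forebrain markers. The cortical projection neuron gene Fezf2 stood at a log2 intensity of 6.72 there, while transgenic samples ranged from 8.69 to 11.19 and wild-type samples 1 and 3 had 9.63 and 10.10. The ganglionic eminence gene Dlx1 stood at 6.79 there, while transgenic samples ranged from 11.56 to 12.43 and wild-type samples 1 and 3 had 12.72 and 12.96. Both readings lay below that array's background of 7.09. Tbr1, Neurod2 and Sox5 were also the lowest of all 6 samples there, at 7.09, 7.66 and 9.58. So were Dlx2, Isl1 and Nkx2-1, at 6.86, 8.60 and 6.81. Some markers of these cell types were not low there. Foxp2, at 9.52, and Nrn1, at 11.81, were the highest of all 6 samples, and Gad1 read 11.995. The list means were still lowest there, at -0.93 for cortical projection neuron and -1.32 for ganglionic eminence genes, relative to the 6-array mean. The midbrain and hindbrain gene En2 read 7.01, 8.21 and 10.98 in transgenic samples, against 7.03, 12.23 and 8.9999 in wild-type samples, so it was bright in wild-type sample 2 and also in transgenic sample 3. The list mean of midbrain, hindbrain and thalamus genes was highest in wild-type sample 2, at 1.30 relative to the 6-array mean. Irx2, Tcf7l2, Otx2 and Pou4f1 from that list were also highest there, at 11.96, 12.84, 12.36 and 11.43. Gbx2, from the same list, was instead lowest in wild-type sample 2, at 7.29, and Hoxb2 was highest in transgenic sample 1, at 7.60. Transgenic sample 1 was bright for skeletal muscle and epidermis, with list means of 2.09 and 1.23 on the log2 scale relative to the 6-array mean, and wild-type sample 3 was next, at 0.65 and 0.13. All 13 tested meningeal and all 12 tested microglial or macrophage genes lay above 0 (transgenic minus wild-type), with median differences of 1.25 and 0.66. So did 8 of 9 choroid plexus genes and all 11 endothelial genes tested, with medians of 1.196 and 0.43. At an unadjusted limma p under 0.05, 6 meningeal, 6 microglial, 5 choroid plexus and 4 endothelial genes lay above 0, and none below. Of all tested probes, 3.47% lay above and 3.51% below 0 at that level, and 56.2% lay below 0 at any p. None of the genes in these lists passed at a limma adjusted p under 0.05. 14 of 15 muscle, 10 of 11 epidermal, 16 of 19 midbrain, hindbrain and thalamus, 14 of 14 meningeal, 12 of 12 endothelial, 10 of 10 choroid plexus and 12 of 13 microglial markers with a probe exceeded background on at least 1 array, Ckm, Sfn, Pax2, Pax5, Pax7 and Ptprc being the exceptions. Of all 16593 named genes, 4941 exceeded background on no array and the others did so on at least 1. In bulk tissue, fewer cells of a type and less RNA per cell cannot be told apart.

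The general neuronal markers followed the same lines as the receptor and scaffold genes. The mean of 16 pan-neuronal genes, each relative to its 6-array mean, was -0.55, 0.11 and -0.0047 in transgenic samples 1 to 3, against 0.29, 0.14 and 0.016 in wild-type samples 1 to 3. The mean of the 19 tested receptor and scaffold genes was -0.48, 0.082 and -0.096 in transgenic samples, against 0.30, 0.092 and 0.10 in wild-type samples. Transgenic sample 1 was lowest and wild-type sample 1 highest by both means.

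**Figure D1:**
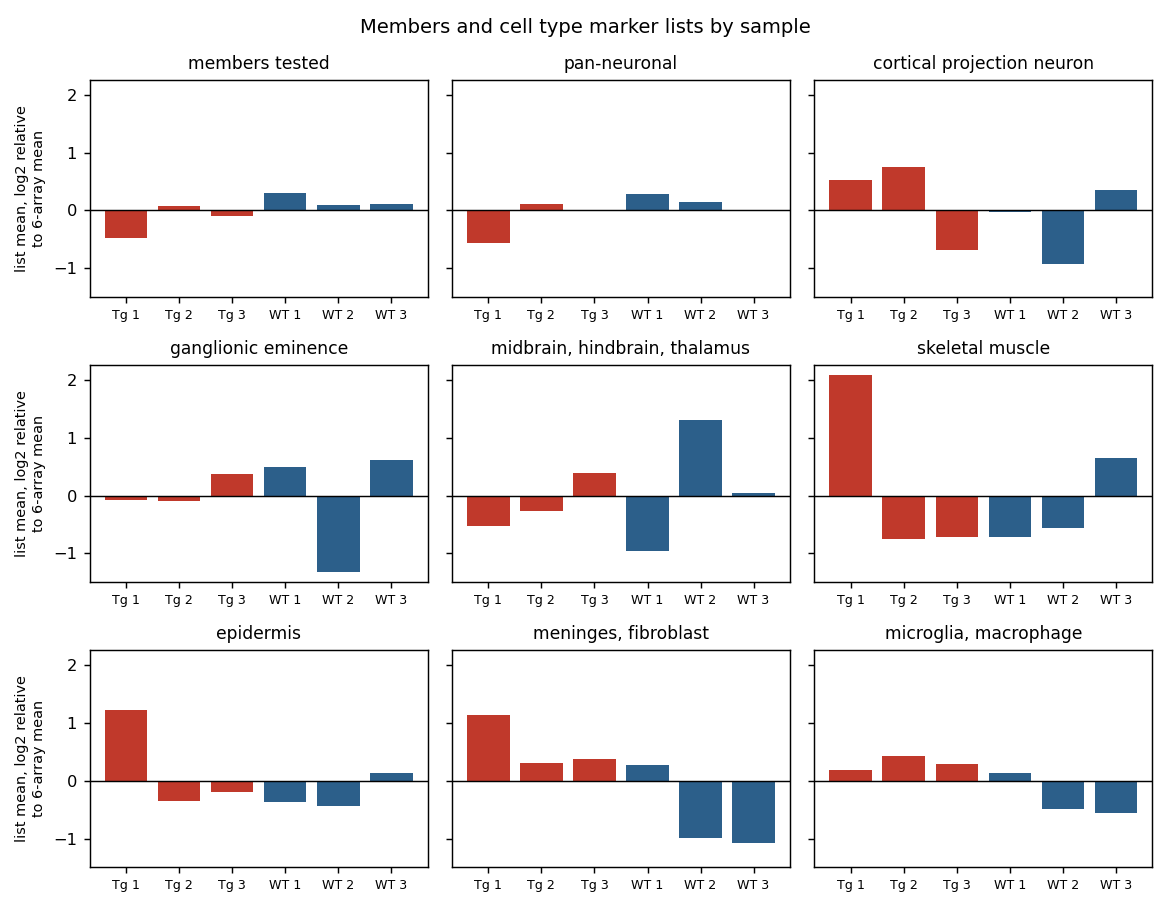
Bars give, for each sample, the mean over a gene list of log2 intensity relative to each gene's 6-array mean, for the tested receptor and scaffold genes and 8 marker lists (red, transgenic; blue, wild-type). Transgenic sample 1 is lowest for the receptor and scaffold genes (-0.48) and for pan-neuronal genes (-0.55) and highest for skeletal muscle (2.09), and wild-type sample 2 is lowest for ganglionic eminence genes (-1.32) and highest for midbrain, hindbrain and thalamus genes (1.302).

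Expression at embryonic day 15 was judged against 1303 probes of olfactory and vomeronasal receptor genes, which are not known to be active in cortex. A probe was called above background on an array where it exceeded the 95th percentile of these probes, a log2 intensity of 7.03 to 7.09 depending on the array. By this measure 17 of the 29 genes were above background on all 6 arrays, 6 on some and 6 on none. Of all 16593 named genes, 8526 were above background on all 6 arrays and 4941 on none. All 4 AMPA receptor genes and 3 of 4 kainate receptor genes were above background throughout. Some were so only narrowly, Gria4 reading 7.054 in transgenic sample 1 against a background of 7.048 on that array. The NMDA genes measured were on the other side, with 0 of 3 above background on any array, as were both measured Shank genes. Among scaffolds, 3 of 4 Dlg genes, 3 of 4 Dlgap genes, Homer1, both CaMKII genes and Gphn were above background on all arrays. With the stricter 99th percentile the count of 17 became 12. Intensities of different probes depend on how well each probe binds, so levels were compared between samples and not between genes.

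A dim reading does not show that a gene is silent. Homer1 had 4 probes, of which 2 averaged 10.08 and 9.55 over the 6 arrays while the other 2, at 6.89 and 6.82, were above background on no array. Grik1, Camk2a and Dlgap4 likewise had bright probes beside probes at background. Grin2a (glutamate receptor GluN2A, typical of mature synapses), Grin2b (GluN2B, typical of young neurons) and Grin2d were each represented by 1 probe, and these read 6.77 to 6.98, 6.73 to 6.93 and 6.65 to 6.93 over the 6 arrays. Shank2 read 6.59 to 6.78 and Shank3 6.76 to 6.97. In these 5 genes the groups overlapped, and an intensity at background carries little of any difference between them.

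The contrast compares the levels of this synaptic machinery between embryos labelled transgenic and wild-type, before most synapses form. Cyfip1 levels themselves were not measured. A probe was tested where its mean lay above the median of all probes, which kept 19 of the 29 genes. The differences of the 10 left out lay between -0.11 (Grin2d) and 0.11 (Grik2). 18 of the 19 tested genes lay below 0 (transgenic minus wild-type), where 56.2% of all 12848 tested probes did. Their median difference was -0.39 on the log2 scale, against -0.031 for all tested probes and -0.33 for the 14 tested pan-neuronal genes. 0 of the 19 passed at a limma adjusted p under 0.05, and percent called over all tested probes was 0. At an unadjusted p under 0.05, 3 lay below 0 (Dlg4, Dlgap3 and Grik5), where 3.51% of all tested probes lay below 0 at that level. None lay above 0 at that level, where 3.47% of all tested probes did. The count of 3 was 0 under median scaling or without wild-type sample 2, and 1 without transgenic sample 1 or without wild-type sample 3. All 3 transgenic values lay below all 3 wild-type values for 6 of the 19, where 8.25% of tested probes did so. For none did all transgenic values lie above, where 5.94% of tested probes did so. The median difference was -0.24 without transgenic sample 1, with 16 of the 19 below 0, and -0.26 with wild-type sample 2 left out too, with 15 below 0. With the pan-neuronal mean as a covariate the median was -0.099 and 14 of 19 lay below 0. The part of tissue make-up in these differences was not tested.

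**Figure D2:**
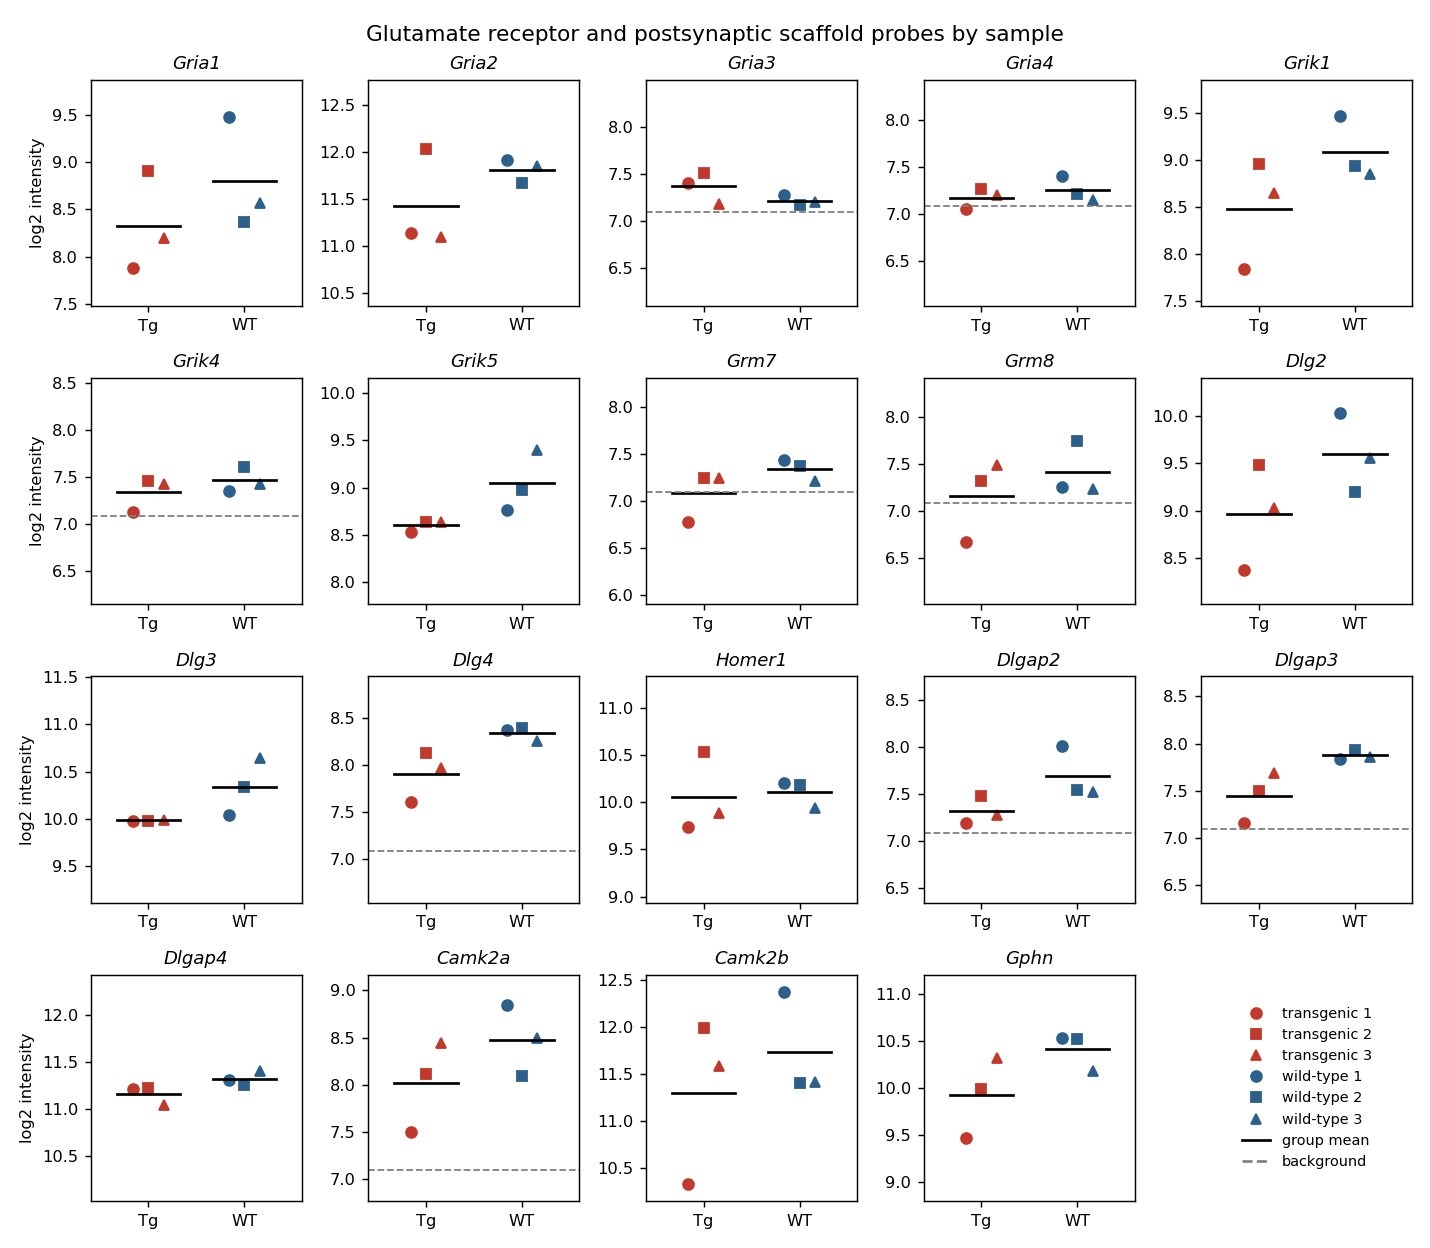
Each panel plots log2 intensity of 1 tested gene in 3 transgenic (left, red) and 3 wild-type (right, blue) samples, with black lines for group means, panels of equal height on the log2 scale, and a dashed line at 7.09, the highest background of any array, where it falls in range. Symbols name samples and pair none. The groups do not overlap for Grik5, Dlg3, Dlg4, Dlgap2, Dlgap3 and Dlgap4, and transgenic sample 1 is the lowest of all 6 for Camk2b, at 10.33.

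Among AMPA receptor genes, 3 of 4 lay below 0 and none passed. Gria2 encodes GluA2, the subunit that makes the channel impermeable to calcium after RNA editing. It read 11.14, 12.03 and 11.10 in transgenic samples, against 11.92, 11.67 and 11.85 in wild-type samples. Transgenic sample 2 was the highest of all 6 and the other transgenic samples the lowest, so the difference of -0.39 (SE 0.26, limma adjusted p = 0.694) was within the spread. It was -0.14 with the pan-neuronal mean as a covariate, and -0.24, -0.69 and -0.23 without transgenic sample 1, 2 or 3. Gria1, which encodes GluA1, read 7.87, 8.90 and 8.20 in transgenic samples, against 9.48, 8.36 and 8.57 in wild-type samples. Here the groups overlapped and wild-type sample 1 stood above the rest. Leaving out transgenic sample 1 gave a difference of -0.26, leaving out transgenic sample 2 gave -0.77 and leaving out wild-type sample 1 gave -0.14, while it was -0.025 with the pan-neuronal covariate. The 3 Gria1 probes differed by -0.48, -0.49 and -0.53 and the 2 Gria2 probes by -0.39 and -0.37, so probes of each gene had one sign. Gria4 read 7.05, 7.27 and 7.20 in transgenic samples, against 7.403, 7.22 and 7.15 in wild-type samples, all just above background and overlapping. Gria3 was the only tested gene above 0. It read 7.41, 7.51 and 7.18 in transgenic samples, against 7.27, 7.16 and 7.20 in wild-type samples, differing by 0.15 (95% interval -0.13 to 0.44). The other 2 Gria3 probes, dimmer than this one, differed by -0.042 and 0.065.

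All 3 tested kainate receptor genes lay below 0. Grik1, which encodes GluK1, read 7.84, 8.96 and 8.65 in transgenic samples, against 9.46, 8.93 and 8.85 in wild-type samples, differing by -0.60 (SE 0.31, limma adjusted p = 0.675). Transgenic sample 1 lay far below the rest and transgenic sample 2 above 2 of the wild-type samples, and the difference was -0.27 without transgenic sample 1 and -0.089 with the pan-neuronal covariate. Grik5 encodes GluK5, a subunit that forms channels only together with others such as GluK1 to GluK3. It read 8.53, 8.64 and 8.63 in transgenic samples, against 8.76, 8.97 and 9.40 in wild-type samples. The transgenic samples were close together and all below the wild-type samples. The difference was -0.44 (95% interval -0.86 to -0.032, limma adjusted p = 0.675), a 1.36-fold lower intensity in transgenic samples. It was -0.41 without transgenic sample 1, -0.45 with wild-type sample 2 left out too, and -0.49 with the pan-neuronal mean as a covariate, while without wild-type sample 3, its brightest sample, it was -0.27. Grik4 read 7.13, 7.45 and 7.43 in transgenic samples, against 7.36, 7.61 and 7.42 in wild-type samples, and overlapped. Grik2 exceeded background only in transgenic samples 1 and 2, at 7.17 in both, and was not tested.

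Of the metabotropic receptors, Grm7 and Grm8 could be tested. Both encode presynaptic receptors that damp transmitter release. Grm7 read 6.77, 7.24 and 7.25 in transgenic samples, against 7.43, 7.37 and 7.21 in wild-type samples. Grm8 read 6.68, 7.32 and 7.49 in transgenic samples, against 7.25, 7.75 and 7.24 in wild-type samples. In both, transgenic sample 1 was the only reading at background. The differences were -0.25 for each, and without transgenic sample 1 they were -0.097 and -0.0096. Grm4 read 6.92 to 7.19 and Grm3 6.57 to 6.90 over all samples, with overlapping groups.

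The scaffold genes accounted for 5 of the 6 genes without overlap. Dlg4 encodes PSD-95, the most abundant scaffold of the mature excitatory synapse and a known target of FMRP. It read 7.61, 8.12 and 7.97 in transgenic samples, against 8.37, 8.39 and 8.26 in wild-type samples, so even the highest transgenic reading lay under the lowest wild-type one. The difference was -0.44 (95% interval -0.80 to -0.070, limma adjusted p = 0.675), but it was -0.29 without transgenic sample 1 and -0.23 with the pan-neuronal mean as a covariate. Dlg3, which encodes SAP102, the relative that prevails in young neurons, read 9.97, 9.98 and 9.99 in transgenic samples, against 10.04, 10.34 and 10.65 in wild-type samples. The 3 transgenic samples were nearly identical (SD 0.0077) and the wild-type samples spread more widely (SD 0.30). Its difference of -0.36 (SE 0.16, limma adjusted p = 0.675) was -0.36 again without transgenic sample 1, and -0.44 with the pan-neuronal mean as a covariate, but -0.21 without wild-type sample 3. Dlg2, which encodes PSD-93, differed by -0.64 (SE 0.33), by -0.34 without transgenic sample 1, by -0.42 without wild-type sample 1 and by -0.17 with the pan-neuronal covariate. It read 8.37, 9.48 and 9.03 in transgenic samples, against 10.04, 9.19 and 9.56 in wild-type samples, with overlap. Dlg1 exceeded background only in transgenic sample 1, at 7.09.

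Dlgap genes encode the linkers between PSD-95 and Shank. Dlgap3 read 7.15, 7.50 and 7.69 in transgenic samples, against 7.84, 7.93 and 7.86 in wild-type samples, with no overlap and a difference of -0.43 (95% interval -0.80 to -0.065, limma adjusted p = 0.675). The Dlgap3 difference was -0.29 without transgenic sample 1 and -0.26 with the pan-neuronal covariate. Dlgap2 read 7.19, 7.48 and 7.28 in transgenic samples, against 8.01, 7.54 and 7.52 in wild-type samples. Its groups were also separate, narrowly between transgenic sample 2 and wild-type sample 3. The difference was -0.37 (SE 0.17), or -0.21 either without wild-type sample 1 or with the pan-neuronal covariate. The dimmer Dlgap2 probes had overlapping groups and differed by -0.090 and -0.21. Dlgap4 read 11.21, 11.23 and 11.05 in transgenic samples, against 11.31, 11.26 and 11.40 in wild-type samples, and a second bright probe also had no overlap. The Dlgap4 difference was small, at -0.16 and -0.19 for these probes, and the first had a limma adjusted p of 0.692 and was -0.10 without transgenic sample 3. Dlgap1 exceeded background only in transgenic sample 2, at 7.07.

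Homer1 and the CaMKII and gephyrin genes all had overlapping groups. Homer1 read 9.74, 10.53 and 9.89 in transgenic samples, against 10.21, 10.19 and 9.94 in wild-type samples, differing by -0.059 (95% interval -0.59 to 0.47). The sign turned under 8 of 19 alternative settings, among them median scaling and leaving out transgenic sample 1. Camk2b, the CaMKII subunit that bundles actin and appears early in development, read 10.33, 11.99 and 11.58 in transgenic samples, against 12.37, 11.41 and 11.41 in wild-type samples. Transgenic samples 2 and 3 lay above wild-type samples 2 and 3, and the difference of -0.43 (SE 0.47) became 0.055 when transgenic sample 1 was left out, -0.77 when transgenic sample 2 was, -0.11 when wild-type sample 1 was, and 0.34 with the pan-neuronal covariate. Camk2a, whose product becomes abundant after birth, read 7.50, 8.11 and 8.45 in transgenic samples, against 8.84, 8.10 and 8.49 in wild-type samples, again with transgenic sample 1 lowest, and a probe of it at background had the opposite sign (0.058). Its difference of -0.46 (SE 0.29) was -0.20 when transgenic sample 1 was left out, -0.27 when wild-type sample 1 was, and -0.099 with the pan-neuronal covariate. Gphn read 9.48, 9.99 and 10.33 in transgenic samples, against 10.53, 10.53 and 10.18 in wild-type samples. Wild-type sample 3 lay among the transgenic samples, and the 3 Gphn probes, read on the same samples, differed by -0.48, -0.41 and -0.43. The first of these was -0.26 without transgenic sample 1 and -0.17 with the pan-neuronal covariate.

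**Figure D3:**
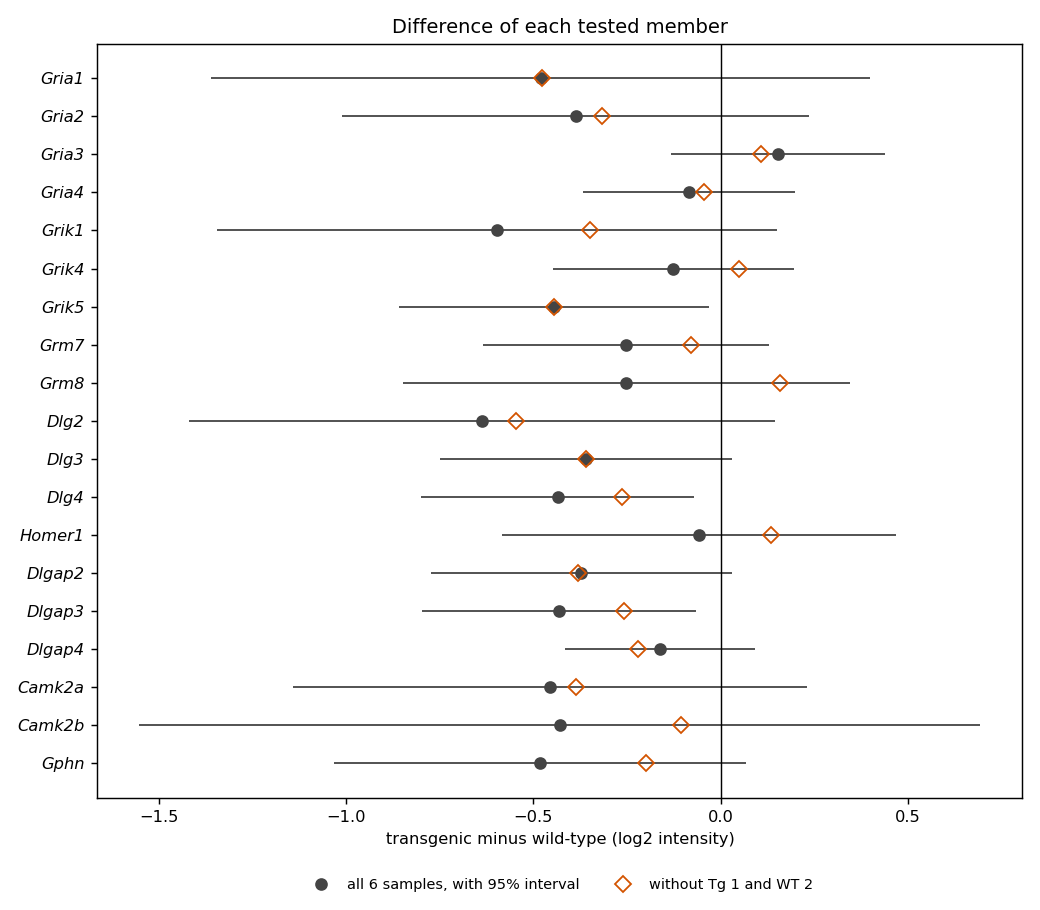
Dots give the difference transgenic minus wild-type in log2 intensity for the 19 tested genes with their 95% intervals, and open diamonds the difference with both transgenic sample 1 and wild-type sample 2 left out. The intervals of Grik5, Dlg4 and Dlgap3 end below 0, and the diamonds of Grik4, Grm8 and Homer1, whose dots lie below 0, are at 0.050, 0.16 and 0.13.

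Animal numbers given by the labels form a range under 100 (transgenic sample 1 and wild-type sample 3) and a range over 200 (the others), and the labels do not say what they mean. Within the pair under 100, 18 of 19 differences were below 0, and within the 4 samples over 200, 17 of 19 were. Dlg4 differed by -0.64 within the first range and by -0.33 within the second, Grik5 by -0.87 and -0.23, Dlgap3 by -0.71 and -0.29, and Dlg3 by -0.67 and -0.20. Dlgap4 differed by -0.19 and -0.15, and Dlgap2 by -0.33 and -0.39, larger in the second range. With the range as a block, 8 of the 19 lay below 0 at an unadjusted p under 0.05, where 8.57% of all tested probes did, and 0 passed adjusted. The median over the samples numbered over 200 alone was -0.20.

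Bright probes of Gria1, Gria2, Gphn and Dlgap4 gave like differences within each gene. Probes with a mean below the highest background ranged from -0.21 (Dlgap2) to 0.11 (Homer1). The deposited values carry no background correction, which is known to understate the differences of dim probes.

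**Figure D4:**
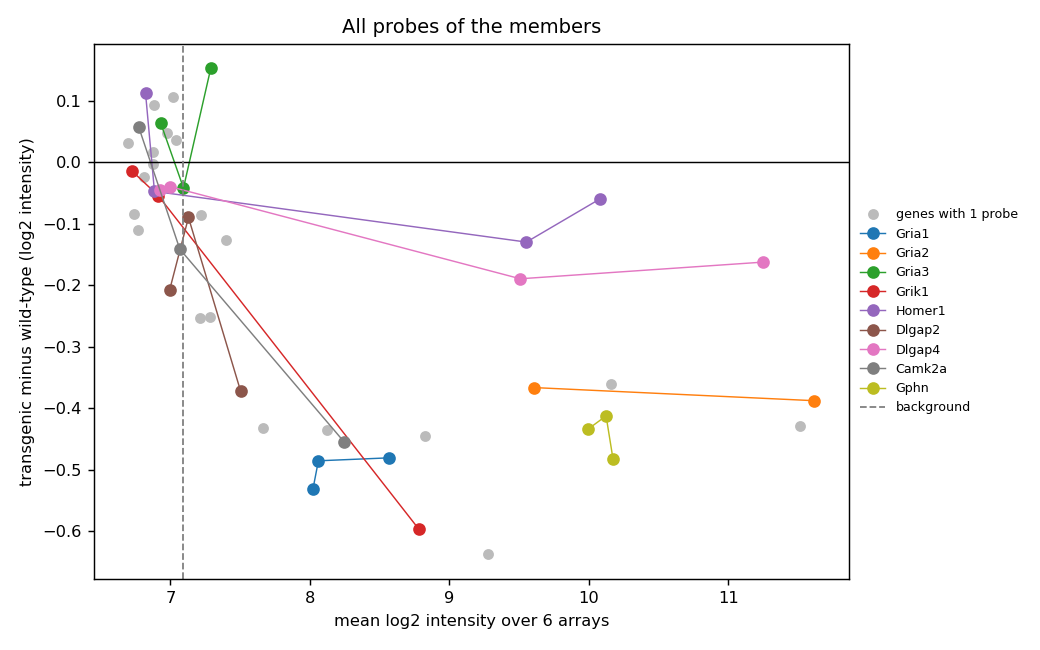
Each point is 1 probe of the receptor and scaffold genes, with mean log2 intensity over the 6 arrays on the horizontal axis and the difference transgenic minus wild-type in log2 intensity on the vertical axis. Lines join probes of 1 gene, and the dashed line marks the highest background of any array, 7.09. The 3 Gphn probes lie together between -0.48 and -0.41, while probes left of the line lie between -0.21 and 0.11.

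The upstream sequences of 3 genes without overlap are shown because these genes shared a direction and each had a single start in the RefSeq promoter table (GRCm38.p6). Each runs 5′ to 3′ on the gene's strand from 250 bases before to 50 after the start, with CpG dinucleotides in capitals.
Grik5 (chr7:25072320-25072619, minus strand): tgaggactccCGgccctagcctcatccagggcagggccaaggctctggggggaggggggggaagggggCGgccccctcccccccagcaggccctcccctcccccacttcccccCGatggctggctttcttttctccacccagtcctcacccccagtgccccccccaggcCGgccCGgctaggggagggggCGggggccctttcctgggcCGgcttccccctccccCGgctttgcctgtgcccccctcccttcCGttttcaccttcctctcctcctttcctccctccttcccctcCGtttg
Dlgap3 (chr4:127172630-127172929, plus strand): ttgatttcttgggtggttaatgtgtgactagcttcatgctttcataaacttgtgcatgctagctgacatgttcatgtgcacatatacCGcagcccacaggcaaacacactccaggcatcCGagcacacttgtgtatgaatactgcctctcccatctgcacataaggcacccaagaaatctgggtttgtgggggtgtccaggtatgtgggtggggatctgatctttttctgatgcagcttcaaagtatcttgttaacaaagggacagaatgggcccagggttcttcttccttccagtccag
Dlgap4 (chr2:156720715-156721014, plus strand): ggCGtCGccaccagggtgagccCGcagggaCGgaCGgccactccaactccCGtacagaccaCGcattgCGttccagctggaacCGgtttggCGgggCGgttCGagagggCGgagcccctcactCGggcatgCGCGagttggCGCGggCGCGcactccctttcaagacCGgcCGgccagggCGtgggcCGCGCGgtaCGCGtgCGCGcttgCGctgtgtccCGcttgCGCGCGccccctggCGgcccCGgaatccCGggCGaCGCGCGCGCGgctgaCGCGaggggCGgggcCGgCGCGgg
Their base composition differed widely although their direction was shared. The Dlgap4 window holds 50 CpGs, an observed over expected ratio of 1.15, the Grik5 window 10 (0.277) and the Dlgap3 window 2 (0.117). The median ratio was 0.603 over the 39 windows listed for 25 of the 37 genes and 0.384 over 32851 windows of all genes. The GC box GGGCGG, read on both strands, was in the Grik5 and Dlgap4 windows and not in that of Dlgap3, in 19 of the 39 windows and in 35.7% of all windows. The TATA box TATAAA was in none of the 3, in 3 of the 39 and in 13.6% of all windows. The left arm of the RE1 element, TTCAGCACC, which the neuronal repressor REST binds as part of a longer site, was in 1 of the 39 windows, that of Grm2, and in 0.371% of all. A match is a run of letters in these windows, not a binding site, and the arrays measured no promoter activity.

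Other genes of the postsynaptic apparatus and of glutamate transport mostly lay on the same side. So did the pan-neuronal genes, 12 of 14 tested lying below 0 (median -0.33). Of 102 further genes in 5 lists, 79 had a probe, 61 were tested and 48 of these lay below 0 (median -0.21), where 56.2% of all tested probes did. At an unadjusted p under 0.05, 6 of the 61 lay below 0 and 0 above, where 3.51% and 3.47% of all tested probes did, and 0 passed the limma adjusted threshold. Of 29 tested genes of the postsynaptic density, 24 lay below 0. Kalrn, an exchange factor that shapes spines, read 9.59, 10.55 and 9.79 in transgenic samples, against 10.81, 10.82 and 10.91 in wild-type samples, differing by -0.87 (SE 0.25, limma adjusted p = 0.675). All its transgenic values lay below the wild-type ones, and transgenic sample 2 came closest. The adhesion molecules Nlgn3 and Lrrc4b differed by -0.56 and -0.65, each without overlap. Of 17 tested genes for receptor partners and trafficking, 12 lay below 0. Epb41l1, a cytoskeletal protein that binds GluA1, read 10.53, 10.92 and 10.84 in transgenic samples, against 11.42, 11.34 and 11.31 in wild-type samples, differing by -0.59 (SE 0.13, limma adjusted p = 0.675) with clear separation of the groups. Gripap1 differed by -0.26, and the auxiliary subunit genes Cacng5 and Cacng2 by -0.86 and -0.32. All 6 tested genes of the inhibitory postsynapse lay below 0 (median -0.30), none at an unadjusted p under 0.05, and the glycine receptor gene Glra2 differed by -0.62, Iqsec3 by -0.68, Gabrb2 by -0.20 and Nlgn2 by -0.19. Of 8 glutamate transporter genes 6 lay below 0. Slc1a2 differed by -0.35 without overlap, Slc1a6 by -0.16, Slc1a1 by -0.39 and Slc17a6, the vesicular transporter of subcortical neurons, by -0.72. Grin2c, the one tested gene of the remaining receptors, differed by 0.045.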

How the data were processed

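RNA of 6 embryos was measured on Illumina MouseRef-8 v2.0 arrays. Linear intensity per probe was deposited as scanner output, made with BeadStudio per the submitters' processing notes, with settings not given in the sources used here. The deposited log2 values equal quantile-normalized log2 intensities without background correction, to within 5e-09, with a median of 7.18 in every array, so scale and direction were settled and no centring was found. These log2 values were analysed, because the choice of genes names them. Median scanner intensity ranged from 130.3 to 178 per array.

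12848 of 25697 probes, those whose 6-array mean exceeded the median probe, were tested with limma 3.58.1 (R 4.3.3; lmFit, eBayes, two-sided, no covariate) and adjusted by Benjamini-Hochberg, threshold 0.05. The test was tried on simulated data with noise drawn separately for each probe. Shifts shared between probes of a tissue were not simulated, and no result here rests on that trial. An exact permutation test of 3 against 3 cannot go below 0.1 and was not used. The platform annotation named 23978 probes with 1 gene each and left 1719 unnamed, and 23962 of the named were found in RefSeq by gene identifier.

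The genes and lists were chosen with earlier results of these data known. All 37 genes were to be named, with sample values for those without overlap, at an unadjusted p under 0.05, brightest or dimmest in their class, or with probes of opposite sign, along with up to 4 genes of smallest p in each further list and up to 4 of widest range in each marker list. One gene of the further lists is not reported here. Samples were grouped by the labelled genotype and numbered only to name them. The labels give each an animal number, and p-values measure the spread between these embryos. Alternatives covered background correction, scaling, filter, probe choice, covariates, array weights and samples left out.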

Additional observations from a re-analysis of the deposited data

How the results depend on the processing

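No probe passed the limma adjusted threshold under any alternative run across all probes, the leave-one-out fits included, and no receptor or scaffold gene did. Of 352 recomputed differences of single genes, 338 kept their sign and 14 of the 19 genes kept it in every setting run. The sign turned for Homer1 under median scaling (0.022), with transgenic sample 1 and wild-type sample 2 both left out (0.13), with the muscle and skin mean (0.043) or the pan-neuronal mean (0.21) as covariate, among animals numbered over 200 (0.00998), with transgenic sample 3 and wild-type sample 2 both left out (0.062), and without transgenic sample 1 or 3, leave-one-out values running from -0.30 to 0.097. It turned for Camk2b without transgenic sample 1 (leave-one-out values from -0.77 to 0.055) and with the pan-neuronal covariate (0.34), for Grm8 with the first pair left out (0.16) and with the pan-neuronal covariate (0.040), for Grik4 with the first pair left out (0.050) and for Gria4 with the pan-neuronal covariate (0.029). The median difference of the tested genes ranged from -0.46 to -0.24 when 1 sample was left out, was -0.16 over all 29 genes with no intensity filter and -0.099 with the pan-neuronal covariate, and -0.44 after normexp correction of the scanner table. Without 1 sample, 16 to 18 of the tested genes lay below 0, and 0 to 4 did so at an unadjusted p under 0.05. That last count, 3 as reported, became 1 on leaving out transgenic sample 1 or wild-type sample 3 and 0 on leaving out wild-type sample 2. It was 0 under median scaling, 0 with the first pair left out, 8 with number range as a block, 5 with the muscle and skin covariate, 0 with the pan-neuronal covariate and 1 among animals numbered over 200.

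Probes at an unadjusted p under 0.05 numbered 446 higher and 451 lower. They were 776 and 106 under median scaling, which moved the median of all tested probes to 0.032, 540 and 338 under cyclic loess, 749 and 880 with no filter, 184 and 165 with the first pair left out, 895 and 1101 with the range as a block, and 138 and 175 with the second pair left out. With the muscle and skin covariate 683 were lower. Leaving out 1 sample gave 195 to 651 higher and 228 to 472 lower, with 294 and 253 without transgenic sample 1 and 195 and 228 without wild-type sample 2. The fits among animals numbered over 200 and with the second pair left out were chosen after seeing the data. The cause of these changes was not tested. No paired analysis was possible because the labels do not say which transgenic and wild-type embryos form pairs. The block above is a range of animal numbers that pairs no samples beyond the 2 under 100. Genes above background on all arrays numbered 12 to 19 over the alternatives. Signals near background limit what can be said of NMDA receptor and Shank genes.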
